A study of Mus musculus with 12 samples.

Results

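Dual-alpha T cells are T cells in which 2 different productive alpha chain (TRA) messages were found. They were chosen by a count of receptor contigs in single cells: exactly 2 productive TRA contigs with different CDR3 nucleotide sequences and at most 1 productive beta chain (TRB) contig in 1 called cell. By this rule 1021 of 11518 called cells were dual-alpha, out of 8974 cells with any productive TRA. The comparison set, single-alpha cells, had exactly 1 productive TRA and at most 1 productive TRB, and numbered 6813. The CDR3 is the loop at the join of V and J gene that contacts antigen, and productive means an open reading frame through that join.

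The cells were CD45+ immune cells sorted from mammary tumours of Balb/c mice, and T cell receptor messages were enriched from the same kind of droplet library. Of the libraries in the receptor table, 6 could be tied to samples by a number, PBS1 and CSF1R through the number of an expression library. By their labels CTX, CTX2, Combined and CSF1R were treated, with a treatment protocol of cyclophosphamide and pexidartinib over 3 weeks, and PBS1 was untreated. PBS2 has conflicting labels, treated for its receptor sample and untreated for the expression sample it is listed with, so its values stand beside the others. The names CTX, CSF1R, Combined and PBS come from the table and are not defined in the labels. The number of CSF1R opens the titles of 2 expression samples, both treated. Which library came from which mouse is not stated, so every p-value here measures how libraries vary, and that may be technical.

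An alpha chain gene is made in the thymus by joining 1 of many TRAV genes to 1 of many TRAJ genes. The beta chain locus is largely held to 1 working copy per cell, whereas both copies of the alpha locus rearrange, and each can do so repeatedly: a later join uses a more distant TRAV and a more downstream TRAJ and deletes the earlier one. Rearrangement stops once a receptor is positively selected. A mature T cell can therefore keep productive joins on both chromosomes, or 1 productive and 1 nonproductive join. TRAJ genes are numbered against the direction of the chromosome, so high numbers lie upstream, next to the TRAV genes. In the RefSeq table of assembly GRCm38.p6 the 130 TRAV genes span chromosome 14 from 52427967 to 53977678 and the 60 TRAJ genes from 54155005 to 54218842.

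The clearest members are clones in which several cells carried the same 2 alpha chains beside the same beta chain. There were 12 such clones with a repeated pair, and 5 of them, chosen after their values were seen, are shown here. They are the leading clones of CTX2 and PBS1, the CTX clone that shares a chain with the first, a CTX2 clone built from like genes, and the clone with the most distant TRAJ genes. Each line is a CDR3 of the deposited table, written 5′ to 3′. Capitals mark the junction, the bases left after removing the start shared with other rearrangements of the same TRAV gene and the end shared with others of the same TRAJ gene. A sequence without capitals left none.
CTX2, TRBV13-3 clone, TRAV14N-1 with TRAJ58: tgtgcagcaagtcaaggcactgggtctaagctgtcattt
CTX2, TRBV13-3 clone, TRAV3-4 with TRAJ56: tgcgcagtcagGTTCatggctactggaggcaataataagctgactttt
CTX, TRBV13-1 clone, TRAV14N-1 with TRAJ58: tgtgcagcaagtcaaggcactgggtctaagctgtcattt
CTX, TRBV13-1 clone, TRAV21-DV12 with TRAJ57: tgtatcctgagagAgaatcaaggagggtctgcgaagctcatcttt
CTX2, TRBV5 clone, TRAV14-1 with TRAJ58: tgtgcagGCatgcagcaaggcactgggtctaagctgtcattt
CTX2, TRBV5 clone, TRAV3-4 with TRAJ57: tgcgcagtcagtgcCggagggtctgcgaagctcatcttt
PBS1, TRBV13-3 clone, TRAV14N-1 with TRAJ37: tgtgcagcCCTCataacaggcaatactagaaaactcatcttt
PBS1, TRBV13-3 clone, TRAV6-6 with TRAJ33: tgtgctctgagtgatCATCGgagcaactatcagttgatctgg
CTX, TRBV4 clone, TRAV8D-1 with TRAJ12: tgtgcCCctggaggctataaagtggtcttt
CTX, TRBV4 clone, TRAV1 with TRAJ38: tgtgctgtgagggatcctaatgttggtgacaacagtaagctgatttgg

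Over all 12 clones, the TRAJ genes of the pair lay at most 5 numbers apart in 8. In the other 4 they lay 11 and 15 apart in CTX2 and 19 and 26 apart in CTX, the last being the TRBV4 clone shown. The first TRAV14N-1 chain of the list is identical in the CTX2 and the CTX clone, base for base, although their beta chains differ. No junction bases were left in it.

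Libraries differed in depth. They held 6807 UMIs (unique molecular identifiers, 1 per captured molecule) in PBS1 to 121305 in Combined, and 245 to 7629 called cells. The median productive TRA contig rested on 3 UMIs in PBS2, CSF1R and Combined, 5 in PBS1 and CTX and 6 in CTX2. More than 1 productive TRB was found in 4.79% (CTX2) to 23.7% (CTX) of cells with a TRB. The 6 libraries shared 50 cell barcodes, 13 of them in dual-alpha cells, and in no case did a barcode carry the same CDR3 in both libraries. A TRB, the other defining chain of alpha-beta T cells, was carried by 952 of the 1021 dual-alpha and 6346 of the 6813 single-alpha cells. An immunoglobulin, gamma or delta chain contig was found in 1 dual-alpha cell. After receptor enrichment all 11518 called cells held only 10 immunoglobulin and 2 gamma or delta contigs, so their rarity does not check the label.

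Dual-alpha cells made up a similar share of every library. Among cells with 1 or 2 alpha chains and at most 1 beta chain, the share was 14.0% in PBS1 (22 cells), 13.8% in PBS2 (40 cells), 12.2% in CSF1R (81 cells), 15.4% in CTX (59 cells), 13.0% in CTX2 (128 cells) and 12.9% in Combined (691 cells). The mean was 13.5% ± 1.14 (SD, n = 6), and the exact 95% intervals of the libraries (Clopper-Pearson, for counting error alone) all overlapped. The widest ran from 8.99% to 20.4% in PBS1 and the narrowest from 12% to 13.8% in Combined. The treated libraries averaged 13.4% ± 1.43 (SD, n = 4) against 14.0% in PBS1, a difference of -0.641 percentage points (exact permutation p of 1, two-sided, n = 4 and 1). With 4 libraries against 1 the smallest possible p is 0.2, so this design could not have passed 0.05.

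**Figure D1:**
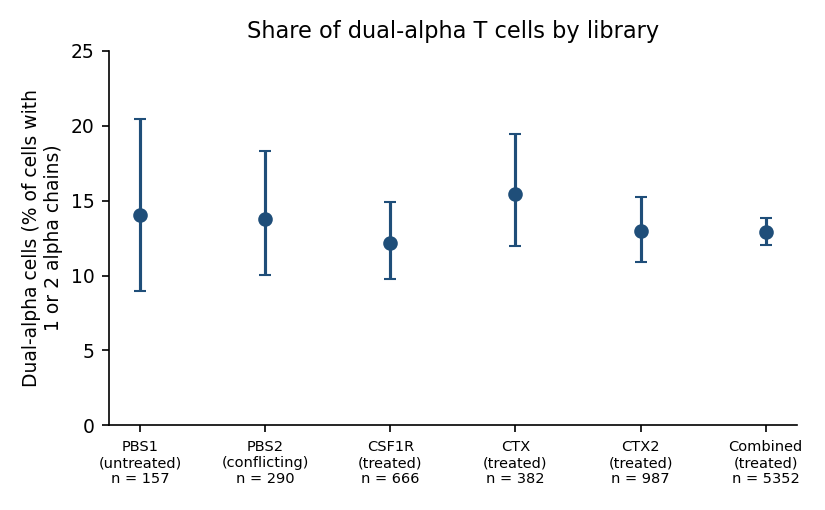
Share of dual-alpha cells (percent of cells with 1 or 2 alpha chains and at most 1 beta chain, vertical axis) in each library (horizontal axis), with exact 95% binomial intervals as bars and the number of cells under each name. The points lie between 12.2% and 15.4% and all intervals overlap.

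The share depended on how well a contig had to be supported. Of all 6 libraries together 13.0% of cells were dual-alpha, and 7.95% with contigs marked high confidence alone, where single libraries ran from 6.59% to 12.2%. With at least 2 UMIs for each TRA contig the share was 8.74%, at 7.83% to 14.5% by library. By depth of the beta chain, which the rule did not use, dual-alpha cells of the pooled libraries were 13.2% of cells with 1 to 4 TRB UMIs, 12.3% with 5 to 9, 13.0% with 10 to 19 and 14.7% with 20 or more. In Combined the last of these bins held 17.7% (exact 95% interval 14.6 to 21.2), and the other bins 12% to 13.1%. CTX2 ran the other way, with 14.7%, 14.6%, 12.2% and 10.1% from the lowest to the highest bin. Values in PBS1 and PBS2, where bins held 20 to 102 cells, varied from 5.88% to 21.7%.

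Just outside the rule lay 105 cells whose 2 TRA contigs had the same CDR3, 308 cells with 2 different TRA and more than 1 TRB, and 120 cells with 3 or more TRA. Just inside it, pairs of nearly the same sequence were absent: no pair of CDR3s differed by 3 bases or fewer, the median pair differed by 19 base edits, and 2 of the 1021 cells had the same V and J gene on both chains. The 1021 cells held 944 distinct pairs. None of these was found in 2 libraries, and 1 was found with 2 different beta chains.

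The 2 alpha chains of a cell were ranked by their UMIs, so a gap between their values follows from the ranking. Whether the chains differ by more than the counting of few molecules was not tested. The rule also needs both chains to be seen, so the UMI values describe the choice of cells. The chain with more UMIs had a median of 9.5 UMIs in PBS1, 5 in PBS2, 3 in CSF1R, 7 in CTX, 8 in CTX2 and 4 in Combined. The chain with fewer had 5, 2, 2, 4, 4 and 2, and the chain of single-alpha cells 5, 4, 3, 4, 7 and 3, in the same order. The single chain thus lay at or between the values of the 2 chains of dual-alpha cells in all 6 libraries.

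The chain with fewer UMIs held a median of 34.5% ± 2.20 of a cell's TRA UMIs (SD of the library medians, n = 6), with little spread between libraries, from 32.7% in CTX2 to 38.5% in CTX. The other chain had at least 4 times as many UMIs in 204 of 1021 cells, and both had the same number in 145. Support was thin in many cells: the chain with fewer rested on a single UMI in 441 cells, which was 18.2% of dual-alpha cells in PBS1, 18.6% in CTX, 21.9% in CTX2, 35.0% in PBS2, 49.4% in CSF1R and 49.8% in Combined. Of single-alpha chains, 5.36% (CTX2) to 20.7% (CSF1R) rested on 1 UMI. Both chains had 5 or more UMIs in 139 cells.

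**Figure D2:**
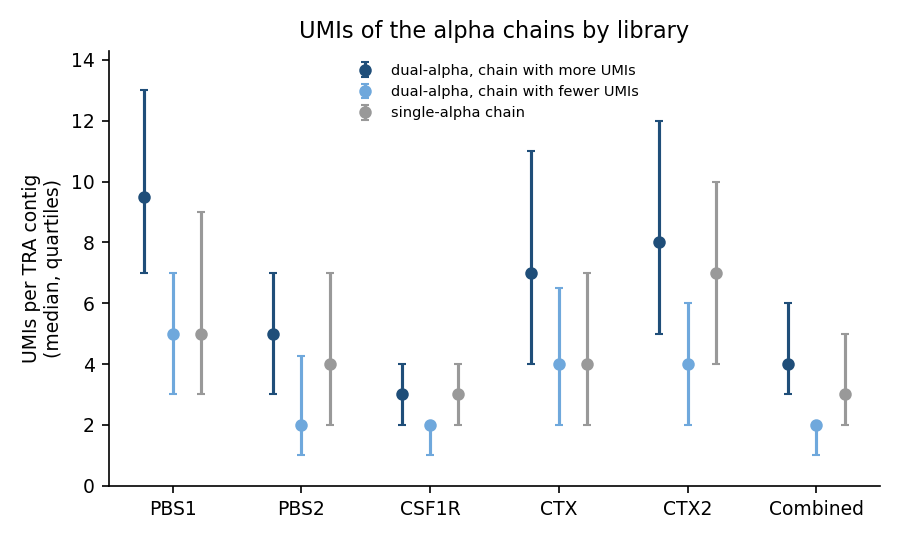
UMIs per TRA contig (vertical axis) in each library (horizontal axis) for the 2 chains of dual-alpha cells and the chain of single-alpha cells, as medians (points) and quartiles (bars). The chain with more UMIs lies highest, at medians of 3 to 9.5, and the chain with fewer at 2 to 5, except that medians of 3 are shared by the higher chain and the single chain in CSF1R and of 5 and 4 by the lower chain and the single chain in PBS1 and CTX.

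The 2 alpha chains of a cell used TRAJ genes that lay near each other. The mean difference in TRAJ number within a cell was 6.67 in PBS1, 8.85 in PBS2, 8.41 in CSF1R, 9.43 in CTX, 10.5 in CTX2 and 9.54 in Combined. Between chains of different dual-alpha cells of the same library it was 16.5, 17.1, 18.1, 15.9, 17.4 and 16.6, in the same order, so all within-cell values lay below all between-cell values. Averaged over libraries the distance was 8.90 within and 16.9 between, a difference of -8.03 ± 1.44 TRAJ numbers (SD, n = 6), smaller within cells in 6 of 6 libraries. The two-sided exact sign-flip permutation p was 0.03125, the smallest that 6 libraries can give. It was 0.156 after Benjamini-Hochberg adjustment over the 10 measures compared within libraries, so it did not pass 0.05 after correction. With 6 libraries a lone measure cannot pass after this adjustment, however large its difference. The difference was -8.55 over PBS1, PBS2, CSF1R and CTX and -7.01 over CTX2 and Combined, whose titles start with JR.

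**Figure D3:**
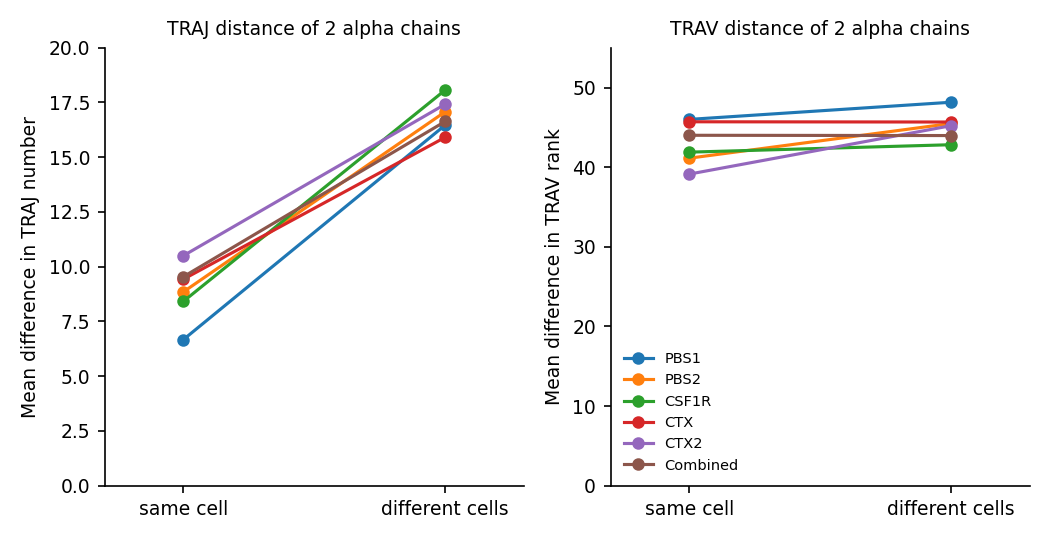
Mean distance between 2 alpha chains of the same dual-alpha cell and of different dual-alpha cells, 1 line per library, in TRAJ numbers (left vertical axis) and in TRAV ranks along chromosome 14 (right vertical axis). TRAJ distances are 6.67 to 10.5 within and 15.9 to 18.1 between cells, while TRAV distances are 39.1 to 46 within and 42.8 to 48.2 between.

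In the 942 distinct pairs of the 6 libraries, 41.9% of pairs lay within 5 TRAJ numbers of each other, against 21.2% of between-cell pairs, and 10.6% lay more than 20 apart, against 34.5%. The rank correlation of the 2 TRAJ numbers, taken in both orders, was 0.63 over these pairs, from 0.59 in CTX2 to 0.80 in PBS1 (70 and 15 pairs). It is a description over cells that share libraries. Combined, with 691 of the pairs, gave 0.61, and the other 5 libraries together 0.67.

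By position along the locus, the partner of a chain in the most upstream block, TRAJ46 to TRAJ61, lay in the same block in 65.3% of cases, where that block held 29.2% of all chains. A partner from the most downstream block, TRAJ1 to TRAJ16, was found in 2.90% of these cases. Chains of TRAJ1 to TRAJ16 had a partner of the same block in 44.8%, against 14.2% of all chains, and a partner in TRAJ46 to TRAJ61 in 5.97%. The median partner of the 4 blocks moved along the locus with the chain itself: TRAJ17 for the most downstream block, then TRAJ30, TRAJ39 and TRAJ49.

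**Figure D4:**
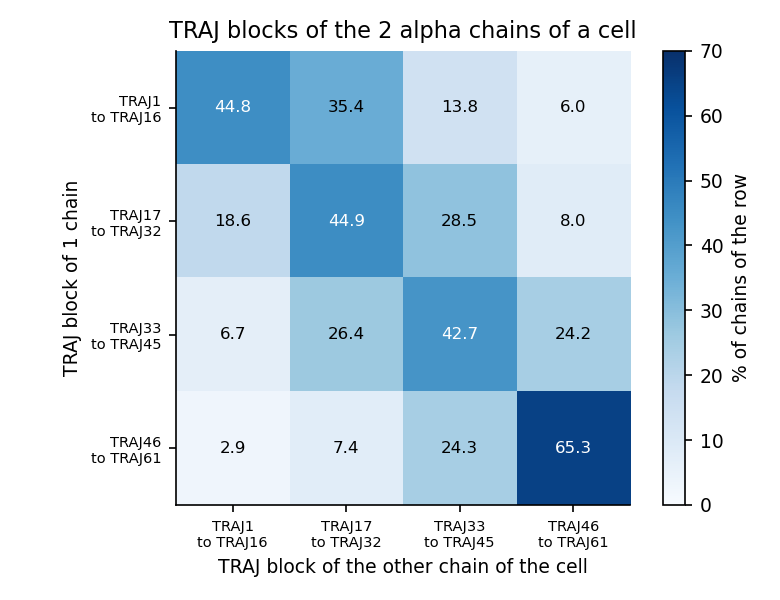
TRAJ blocks of the 2 alpha chains of a dual-alpha cell, over the distinct pairs of the 6 libraries. Each row is the block of 1 chain and each column that of its partner, and the cell gives the percent of the row's chains. The highest value of each row lies on the diagonal, from 42.7% to 65.3%, and the corners of most distant blocks hold 2.90% and 5.97%.

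Closeness of the TRAJ genes was seen at each level of support. In pairs whose weaker chain rested on 1 UMI the mean distance was 9.89, with 2 to 4 UMIs 8.80 and with 5 or more 9.67, against 17, 16.8 and 15.9 between cells of the same sets. The share of pairs more than 20 apart was 14.4%, 7.14% and 8.26%. In Combined the mean distance was 8.78 with 2 to 4 UMIs and 11.8 with 5 or more (46 pairs), the latter against 16.7 between cells. In the other 5 libraries together it was 8.86 and 8.08. The cells just outside the rule, with 2 different TRA and more than 1 TRB, had a mean distance of 13.0 over 304 pairs, against 16.8 between cells, and 25% of their pairs were more than 20 apart. Combined gave 251 of these pairs, with a mean of 13.2 against 9.54 in dual-alpha cells. The few pairs of the other libraries lay on both sides of the dual-alpha values, at 11.6 in PBS2 (11 pairs), 12 in CSF1R (18 pairs), 6 in CTX (14 pairs, where dual-alpha cells had 9.43) and 22.4 in CTX2 (9 pairs). A droplet with 2 T cells would have 2 alpha chains and usually 2 beta chains, and the part such droplets have in either set was not tested.

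With no minimum of UMIs, TRAV genes showed no such closeness beyond the spread between libraries. Ranked from 1 to 130 along the chromosome, the TRAV genes of a cell lay a mean of 46 ranks apart in PBS1, 41.1 in PBS2, 41.9 in CSF1R, 45.7 in CTX, 39.1 in CTX2 and 44.0 in Combined. Between cells the means were 48.2, 45.5, 42.8, 45.7, 45.2 and 44.0. The difference was -2.25 ± 2.50 ranks (SD, n = 6), lower in 4 of 6 libraries, and the exact sign-flip permutation p was 0.125 (adjusted 0.208). In Combined, the library with the most pairs, the difference was 0.0336 ranks. With at least 2 UMIs per TRA contig the mean difference was -2.67 ± 2.01 ranks (SD, n = 6), lower in 6 of 6 libraries. Its exact sign-flip permutation p was 0.03125 (adjusted 0.0781). The TRAJ distance had the same p-values in that setting, at a difference of -8.16 TRAJ numbers. Pairs from the same TRAV family were 24 of 942. Much of the TRAV region exists as near-identical repeated blocks, and Balb/c differs from the strain of the reference, so a TRAV rank is less certain than a TRAJ number.

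Nonproductive alpha contigs were rarer in dual-alpha than in single-alpha cells. A cell has 1 pair of alpha loci, and the rule asks for 2 productive joins, so this direction follows from the choice of cells and the values are given as a description, with no test. A nonproductive join is out of frame or holds a stop codon, so that copy of the locus makes no receptor chain. Such a contig was found in 1 of 22 dual-alpha cells in PBS1, 0 of 40 in PBS2, 0 of 81 in CSF1R, 0 of 59 in CTX, 1 of 128 in CTX2 and 3 of 691 in Combined. The counts of 0, with a limit set at 3 cells, allow shares of up to 7.50%, 3.70% and 5.08% in PBS2, CSF1R and CTX. Among single-alpha cells the shares were 7.41% in PBS1, 6.80% in PBS2, 4.79% in CSF1R, 7.12% in CTX, 6.98% in CTX2 and 3.67% in Combined, higher in each library.

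The mean was 0.960% of dual-alpha and 6.13% of single-alpha cells, a difference of -5.17 percentage points ± 1.83 (SD, n = 6), lower in 6 of 6 libraries. It was -5.39 in PBS1, PBS2, CSF1R and CTX and -4.72 in CTX2 and Combined. With high-confidence contigs alone the shares were 0% and 2.28%, and with contigs of undetermined status counted as nonproductive they were 10.6% and 41.8%, each lower in dual-alpha cells in 6 of 6 libraries. By depth, with the 6 libraries pooled, 0 of 170, 1 of 294, 2 of 338 and 0 of 150 dual-alpha cells had one at 1 to 4, 5 to 9, 10 to 19 and 20 or more TRB UMIs, against 5.01%, 3.91%, 4.46% and 6.31% of single-alpha cells. In the cells with 2 different TRA and more than 1 TRB the share was 4.22% (13 of 308).

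**Figure D5:**
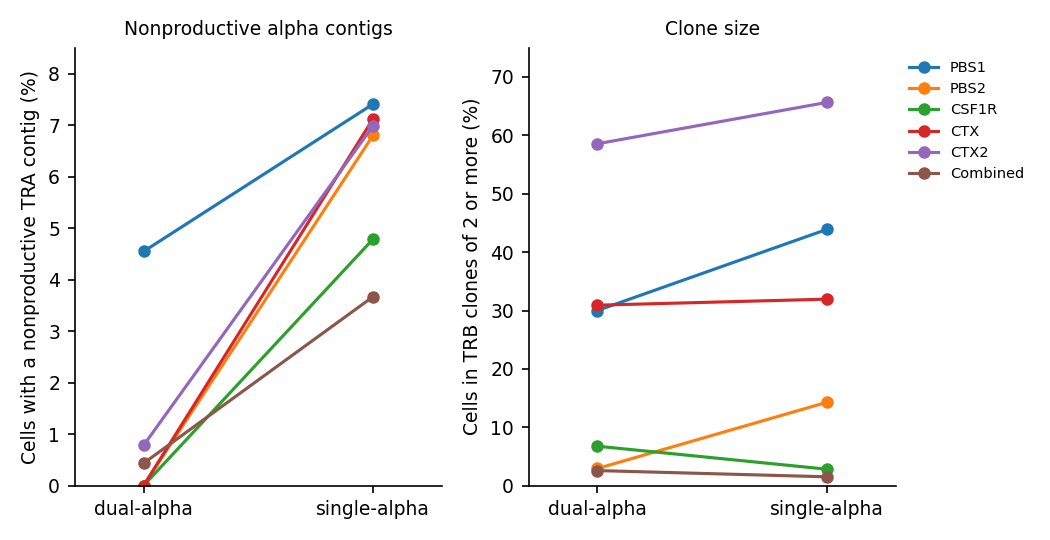
Percent of cells with a nonproductive TRA contig (left vertical axis) and percent of cells with a TRB that belong to TRB clones of 2 or more cells (right vertical axis), in dual-alpha and single-alpha cells, 1 line per library. The nonproductive share is 0 to 4.55% in dual-alpha and 3.67% to 7.41% in single-alpha cells, and the clonal share runs in either direction.

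Membership of clones of 2 or more cells did not separate dual-alpha from single-alpha cells. Clones were defined within a library by TRBV gene and TRB CDR3, so the alpha chain took no part in them. Of dual-alpha cells with a TRB, 30.0% in PBS1, 2.94% in PBS2, 6.76% in CSF1R, 30.9% in CTX, 58.6% in CTX2 and 2.58% in Combined belonged to clones of 2 or more cells. For single-alpha cells these were 43.9%, 14.3%, 2.82%, 31.9%, 65.6% and 1.51%. The difference was -4.73 percentage points ± 7.15 (SD, n = 6), lower in 4 of 6 libraries (exact sign-flip permutation p = 0.219, adjusted 0.313), and -2.89 without PBS1 or -1.92 with high-confidence contigs. The larger spread lay between libraries, which ran from 2.58% to 58.6% within dual-alpha cells.

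Clones of 10 or more cells held 52 of 111 dual-alpha cells in CTX2 (46.8%) and 3 of 55 in CTX (5.45%). They held 0 of 20 in PBS1, 0 of 34 in PBS2, 0 of 74 in CSF1R and 0 of 658 in Combined. Of single-alpha cells they held 54.8% in CTX2, 18.1% in CTX, 21.1% in PBS1 and 3.90% in PBS2, and 0 cells in CSF1R and Combined. Each library with such clones thus had the lower share in dual-alpha cells, a difference that was not tested. By the same limit of 3 cells, the counts of 0 in PBS1 and PBS2 allow shares of up to 15.0% and 8.82%.

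In the libraries with most expanded cells, clone mates mostly shared the second alpha chain as well as the first. The dual-alpha cells that had clone mates with a TRA came from 2 clones in PBS1, 6 in CTX and 11 in CTX2. Cells of 1 clone are not independent. The chain with fewer UMIs was found in at least 1 mate in 6 of 6 of these cells in PBS1, 16 of 17 in CTX and 58 of 64 in CTX2. In the libraries with few expanded cells such sharing was rare among dual-alpha cells, at 1 of 5 in CSF1R, 1 of 13 in Combined and 0 of 1 in PBS2. The chain with more UMIs behaved alike outside PBS2, at 6 of 6, 17 of 17, 62 of 64, 0 of 5, 3 of 13 and 1 of 1 (PBS2). In CSF1R and Combined most of these few dual-alpha cells therefore shared neither alpha chain with a mate. There the chain of single-alpha cells was found in a mate in 8 of 13 and 24 of 63 cells.

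Outside the clone, 0.745% of cells with a TRA in PBS1, 0.321% in CTX and 0.292% in CTX2 carried the chain with fewer UMIs. As a mean of the 6 libraries, 52.1% of the dual-alpha cells that had clone mates had it in a mate (in PBS2 this rests on 1 cell), and 0.268% of cells outside carried it, a difference of 51.8 percentage points ± 47.3 (SD, n = 6), higher in 5 of 6 libraries (exact sign-flip permutation p = 0.0625, adjusted 0.156). These shares are not of the same kind, since a cell counted once however many mates carried the chain. As a mean share of mates the difference was 46.3 points, an alternative chosen after the data were seen.

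A pair of alpha chains was seen in 2 or more dual-alpha cells of the same TRB clone in 12 cases, 6 in CTX2, 4 in CTX and 2 in PBS1. These 12 clones held 115 cells with a TRA, of which 84 carried both chains, 29 carried 1 of them and 2 carried neither. The clones were picked for holding cells with both chains, so 84 of 115 describes them and is no rate of detection in general.

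In the leading CTX2 clone, TRBV13-3 with 37 cells, 27 dual-alpha cells had both TRAV14N-1 with TRAJ58 and TRAV3-4 with TRAJ56. Each of the 2 chains had a median of 5 UMIs, with 1 to 17 for the first and 1 to 22 for the second. Of its 36 cells with a TRA, 4 had only the first chain and 4 only the second. Neither chain led: the first had more UMIs in 13 dual-alpha cells and the second in 12.

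The second CTX2 clone, also TRBV13-3, had 10 dual-alpha cells with TRAV12D-2, TRAJ34 and TRAV6-6, TRAJ31, at medians of 8.5 and 5.5 UMIs. The third, TRBV5, had 9 cells with TRAV14-1, TRAJ58 and TRAV3-4, TRAJ57, at medians of 6 and 7. Here too the lead changed from cell to cell, with the first chain ahead in 5 of 10 and 4 of 9 cells. The TRAJ genes of the pair lay 1 to 3 numbers apart in these 3 clones, 11 and 15 apart in the next CTX2 clones (TRBV13-2 with 6 dual-alpha cells and TRBV31 with 2) and 1 apart in the last (TRBV4 with 2).

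In CTX the leading pairs were TRAV12D-2, TRAJ39 with TRAV13D-2, TRAJ42 in a TRBV13-2 clone (5 cells), TRAV8D-1, TRAJ12 with TRAV1, TRAJ38 in a TRBV4 clone (5 cells) and TRAV14N-1, TRAJ58 with TRAV21-DV12, TRAJ57 in a TRBV13-1 clone (3 cells). In that TRBV13-1 clone 5 of 12 cells with a TRA had both chains and 7 only the TRAV14N-1 chain. In PBS1 they were TRAV14N-1, TRAJ37 with TRAV6-6, TRAJ33 in a TRBV13-3 clone (4 cells) and TRAV6-7-DV9, TRAJ12 with TRAV3-3, TRAJ17 in a TRBV13-2 clone (2 cells). All 7 cells of the PBS1 TRBV13-3 clone that carried the TRAV6-6 chain also carried the TRAV14N-1 chain. No such pair was found in PBS2, CSF1R or Combined. The TRAV21-DV12 chain had more UMIs in 3 of 3 dual-alpha cells of the CTX TRBV13-1 clone. TRAV6-7-DV9 led in 2 of 2 of the PBS1 TRBV13-2 clone and TRAV4-3 in 2 of 2 of a CTX TRBV13-3 clone. In the other clones with a repeated pair neither chain led in every dual-alpha cell.

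In percentage points, use of V and J genes by dual-alpha cells was close to that of single-alpha cells for most genes. Each rearrangement was counted once per library, so clone size did not enter, and genes with a mean share of at least 0.5% were compared. Of 109 TRAV, TRAJ and TRBV genes, 7 (6.42%) differed in the same direction in 6 of 6 libraries, 2 higher (1.83%) and 5 lower (4.59%) in dual-alpha cells. All 7 had an exact sign-flip permutation p of 0.03125, and 0 passed 0.05 after adjustment over the 109 genes, where the lowest adjusted p was 0.487. With 6 libraries a lone gene cannot pass, so these values are a description.

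The alpha V genes most used by dual-alpha cells were TRAV6-6 with 5.37% ± 1.32 of rearrangements (5.48% in single-alpha cells), TRAV8D-1 with 4.45% ± 1.68 (3.00%), TRAV16N with 4.37% ± 1.40 (6.06%), TRAV12D-2 with 4.09% ± 2.16 (3.17%) and TRAV6-7-DV9 with 3.92% ± 1.55 (4.02%; SD, n = 6 each). TRAV9D-1, TRAV12-3, TRAV9N-2, TRAV13-1 and TRAV14N-1 followed at 3.39%, 3.30%, 3.18%, 2.96% and 2.87%. The largest differences from single-alpha cells were 1.74 percentage points for TRAV12-3 (higher in 4 of 6 libraries) and -1.76 for TRAV14D-3-DV8 (lower in 5 of 6, exact sign-flip permutation p = 0.0625). TRAV16N at -1.70 and TRAV9-4 at -1.25 came next on the lower side, at -0.637 and -0.604 without PBS1. On the higher side were TRAV1 at 1.5 and TRAV8D-1 at 1.45. Among rarer genes, named after their values were seen, TRAV15-1-DV6-1 had mean shares of 0.987% in dual-alpha and 0.0822% in single-alpha cells. It rested on 21 and 4 rearrangements, higher in 4 libraries and lower in 0. TRAV6N-6 had 1.03% and 0.0622%, on 10 and 5 rearrangements, higher in 5 libraries and lower in 0.

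TRAV1, the TRAV gene farthest from the TRAJ genes (chromosome 14, 52427967 to 52428876), was higher in dual-alpha cells in 6 of 6 libraries. Its shares were 6.25% against 1.12% in PBS1, 1.28% against 0.885% in PBS2, 1.23% against 1.21% in CSF1R, 3.19% against 0.427% in CTX, 0.735% against 0.571% in CTX2 and 1.16% against 0.658% in Combined. The mean difference was 1.5 percentage points ± 2.05 (SD, n = 6), or 0.770 without PBS1 and 0.333 in CTX2 and Combined alone, and rested on 25 dual-alpha and 43 single-alpha rearrangements. TRAV6-4, TRAV7D-2 and TRAV7D-3 were lower in 6 of 6 libraries, by -1.08, -1.15 and -0.794 points. With at least 2 UMIs per TRA contig TRAV6-4 was at -0.543, and without PBS2 TRAV7D-2 was at -0.766.

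Along the TRAJ genes, dual-alpha cells had a lower share of the most upstream block. Among their rearrangements the block TRAJ46 to TRAJ61 held 15.6% in PBS1, 24.4% in PBS2, 31.5% in CSF1R, 27.7% in CTX, 28.7% in CTX2 and 29.8% in Combined, and among those of single-alpha cells 28.1%, 34.1%, 32.9%, 36.3%, 32.9% and 33.1%. The values were lower in 6 of 6 libraries, by a mean of -6.63 percentage points ± 4.29 (SD, n = 6, exact sign-flip permutation p = 0.03125), and the groups overlapped between libraries. This block was examined after the data were seen, and its p is unadjusted. The other blocks differed by -0.0501 (TRAJ1 to TRAJ16), 1.51 (TRAJ17 to TRAJ32) and 5.17 points (TRAJ33 to TRAJ45). Their exact sign-flip permutation p-values were 0.969, 0.656 and 0.281. The mean TRAJ number, the measure set for this question, was 34.5 in dual-alpha and 35.9 in single-alpha cells, a difference of -1.41 ± 1.62 (SD, n = 6), lower in 5 of 6 libraries (exact sign-flip permutation p = 0.0625, adjusted 0.156). It was -0.857 without PBS2, -0.415 with high-confidence contigs and -0.577 with at least 2 UMIs per TRA contig. The exception was PBS1, with 33.6 against 32.8.

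TRAJ58, near the upstream end (chromosome 14, 54157280 to 54157342), was used by 1.26% ± 0.854 of dual-alpha and 2.96% ± 1.0 of single-alpha rearrangements (SD, n = 6), lower in 6 of 6 libraries. Counting each cell once turned this difference from -1.70 to 0.890 percentage points, and with high-confidence contigs it was -0.612. The large CTX2 clone described above carries TRAJ58 in 27 dual-alpha cells. TRAJ17, toward the downstream end (54201775 to 54201837), was used by 2.87% ± 0.915 against 1.32% ± 0.304 (SD, n = 6), higher in 6 of 6 libraries.

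The other leading J genes of dual-alpha cells were TRAJ37 with 5.11% ± 3.75, TRAJ49 with 4.44% ± 2.84, TRAJ43 with 4.11% ± 4.36, TRAJ50 with 4.09% ± 3.23 and TRAJ30 with 3.90% ± 2.16 (SD, n = 6 each). TRAJ22, TRAJ40, TRAJ53, TRAJ32 and TRAJ52 were used by 3.61% to 3.78%. TRAJ43 and TRAJ37 had the largest positive mean differences, 1.95 and 1.73 percentage points, and both reached 12.5% in PBS1, which had 32 dual-alpha rearrangements. TRAJ43 was higher in only 2 of 6 libraries, and its difference was 0.0688 without PBS1. TRAJ37 was higher in 4 of 6, at 0.924 without PBS1. TRAJ52 and TRAJ15 differed by -1.57 (lower in 4 of 6) and -1.47 points (lower in 5 of 6), the latter by -0.420 without PBS1.

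Beta chains of dual-alpha cells, which the rule did not choose, used TRBV13-2 in 14.2% ± 4.37 of TRB rearrangements, TRBV19 in 11.7% ± 3.94, TRBV13-3 in 10.3% ± 3.06, TRBV13-1 in 9.48% ± 6.06 and TRBV31 in 7.78% ± 2.63 (SD, n = 6 each), and single-alpha cells in 12.6%, 11.5%, 7.77%, 11.4% and 6.55%. TRBV5, named here after its values were seen, had the largest difference, with 4.78% ± 4.70 against 11.5% ± 1.14 (SD, n = 6), lower in 6 of 6 libraries. It was at 0% in PBS1 and PBS2, 9.59% in CSF1R, 4.55% in CTX, 3.45% in CTX2 and 11.1% in Combined, against 9.48% to 12.6% in single-alpha cells. In Combined, with most of the cells, single-alpha cells were at 11.2%. PBS1 and PBS2 had 20 and 34 dual-alpha cells with a TRB. Counting each cell once moved the TRBV5 difference from -6.70 to -3.83 points.

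The alpha CDR3 was of like length in both classes, 13.8 and 13.6 amino acids on average. The difference was 0.135 ± 0.143 (SD, n = 6), longer in dual-alpha cells in 5 of 6 libraries (exact sign-flip permutation p = 0.0938, adjusted 0.188). With at least 2 UMIs per TRA contig it was 0.198 ± 0.200, longer in 6 of 6 libraries (exact sign-flip permutation p = 0.03125, adjusted 0.0781). The TRAJ number of the chain with more UMIs differed from that of its partner by -0.532 ± 2.88 (SD, n = 6, exact sign-flip permutation p = 0.719, adjusted 0.75). This difference was above 0 in 3 libraries and below 0 in 3, from -5.66 in CTX to 2.89 in PBS2. A TRB was found in 90.4% of dual-alpha and 92.0% of single-alpha cells, a difference of -1.59 points ± 5.02 (SD, n = 6, exact sign-flip permutation p = 0.469, adjusted 0.586). Median TRB UMIs were 13, 5, 5, 7, 14 and 10 in dual-alpha cells of PBS1, PBS2, CSF1R, CTX, CTX2 and Combined and 10, 7, 5, 7, 17 and 10 in single-alpha cells. Their log2 ratio averaged -0.06 ± 0.29 (SD, n = 6, exact sign-flip permutation p = 0.75, adjusted 0.75).

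Invariant alpha chains were rare in dual-alpha cells as in the others. The chain of NKT cells (natural killer T cells, which see lipids on CD1d) joins TRAV11 to TRAJ18, and was found in 2 of 1021 dual-alpha cells, 1 in CTX2 and 1 in Combined, and in 15 of 6813 single-alpha cells. In both dual-alpha cells it was the weaker chain, at 1 UMI, beside TRAV7D-4 with TRAJ49 (4 UMIs) and TRAV6-5 with TRAJ35 (8 UMIs). The chain of mucosal-associated invariant T (MAIT) cells, TRAV1 with TRAJ33, was found in 1 dual-alpha cell, in CSF1R, and in 5 single-alpha cells.

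Either alpha chain of a dual-alpha cell could also be found in a different TRB clone of the same library, at much the same rate. The chain with fewer UMIs was found there in 30.0% of dual-alpha cells with a TRB in PBS1, 0% in PBS2, 2.70% in CSF1R, 16.4% in CTX, 13.5% in CTX2 and 3.34% in Combined. For the chain with more UMIs these were 25%, 0%, 0%, 14.5%, 14.4% and 2.89%, lower in 4 libraries, higher in CTX2 and 0 for both chains in PBS2. For the chain of single-alpha cells they were 26.8%, 5.19%, 1.88%, 14.6%, 28.0% and 4.75%. These shares count cells, so clone mates with the same chain counted more than once and are not independent. In PBS1 they rest on 6 and 5 of 20 dual-alpha cells, in CTX on 9 and 8 of 55. The differences between the chains were not tested.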

How the data were processed

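Single-cell T cell receptor contigs of 6 libraries were analysed. Per assembled contig, the deposited table gives the authors' read count and UMI count, both raw. Cell Ranger 3.0.2 and the builds mm10 and GRCm38 (1 assembly) are named in the submitters' processing notes. Of the table's 11 library names, 5 matched no label and were not used.

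Productive contigs in called cells were used, with no minimum. Doublets were not removed beyond the limit on TRB contigs. Clones take the TRB contig with the most UMIs in a cell. A rearrangement (V gene, J gene and CDR3 nucleotides) counted 1 time in a library. TRAJ and TRAV distances used each distinct pair once, without pairs of the same V and J gene, against chains of different dual-alpha cells of the library. Library differences went through an exact sign-flip permutation test (two-sided, 6 libraries), with Benjamini-Hochberg adjustment over 10 measures, or 109 genes for gene use. The nonproductive share, among the 10, is reported without its p because the choice of cells fixes its direction. It stayed in the adjustment at the smallest possible p. The adjusted p-values of TRAJ distance, mean TRAJ number and second chain in clone mates are therefore lower than they would be without it. Junction capitals remove the longest start or end shared with at least 10% and at least 3 other rearrangements of the same TRAV with another TRAJ, or the reverse. All 119 TRAV and TRAJ names matched the RefSeq table.

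The members and lists were chosen with earlier results of these data known. Named TRAV and TRAJ genes have the 10 largest shares in dual-alpha cells or the 3 largest differences in each direction, or form invariant chains. Named TRBV genes have the 5 largest shares, and named clones are up to 3 per library with 1 pair in at least 2 cells. Genes of the same direction in 6 of 6 libraries, TRAV15-1-DV6-1 and TRAV6N-6 were added after their values were seen. Software was edlib 1.3.9.post1, matplotlib 3.10.9, pandas 2.3.3, scipy 1.17.1, numpy 2.4.6 and Python 3.11.15, and the functions were tested on simulated data.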

Additional observations from a re-analysis of the deposited data

How the results depend on the processing

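Depth sets the main limit: 441 of 1021 weaker chains rest on 1 UMI. Within-cell TRAJ distance and the nonproductive share (a description) were lower in 6 of 6 libraries under every alternative run on all 6, and lower in each subset of libraries; leaving out 1 library gave -8.34 to -7.68 TRAJ numbers and -5.63 to -4.78 percentage points. Sets of 5 libraries or fewer cannot reach 0.05. The treated minus untreated difference in share was -2.43 points with high-confidence contigs, -0.531 with PBS2 counted as untreated and -0.557 with it counted as treated, and could not be computed without PBS1 or in the JR libraries. Results near 0 changed sign: the log2 TRB UMI ratio was 0.18 with high-confidence contigs and 0.15 with at least 2 UMIs per TRA contig, and -0.153 to 0.0197 leaving out 1 library; the TRAJ number by UMI rank was 0.114 with at least 2 UMIs and -1.22 to 0.493 leaving out 1 library. TRAJ58 was 0.890 points higher in dual-alpha cells with each cell counted once. Genes of the same direction in every library numbered 3 with at least 2 UMIs (2 of the 7), 9 to 14 leaving out 1 library, 18 in PBS1, PBS2, CSF1R and CTX and 59 in the JR pair, where fewer libraries must agree. The chain with fewer UMIs held 37.8% with at least 2 UMIs per contig, since single UMIs are then left out. The causes of the other changes were not tested. Treated and untreated libraries could not be paired with each other, because the labels give the libraries no replicate numbers. Each comparison within libraries already pairs the classes.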
